A study of Mus musculus with 2 samples.

Results

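Leukocyte adhesion molecules of the vessel wall were followed through the endothelial cells (ECs) of mouse long bone. The 9 genes were Selp, Sele, Vcam1, Icam1, Icam2, Ackr1, Cd34, Podxl and Jam2, taken by name from the 28380 gene rows of both libraries, and all 9 were detected. Circulating leukocytes are slowed by selectins, arrested by immunoglobulin-type ligands that bind leukocyte integrins, and then cross the endothelium at its junctions. In bone marrow, the thin-walled sinusoids carry several of these molecules without inflammation and are the vessels through which blood cells enter and leave the marrow. Arteries and the capillaries of the metaphysis, named type H, are lined by different ECs. Type R ECs line post-arterial capillaries around remodelling trabecular bone.

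Both libraries came from femur and tibia of C57BL/6 mice of either sex at postnatal day 30, with CD45, CD117 and lineage-positive cells depleted, so the samples were enriched for non-haematopoietic cells. The Control library came from mice with genotype Dach1OE +/f, which carry the Dach1 transgene and no Cre. The Dach1OE library came from mice with genotype Apj CreERT2 - Dach1OE +/f, in which a tamoxifen-inducible Cre is driven from the apelin receptor gene (Apj or Aplnr) and turns the transgene on. Both groups received tamoxifen, given in the first days after birth per the study's methods. The ECs in which the driver was active at that time were not measured here. Each group was 1 library of pooled mice. No difference between the groups therefore has a replicate check, no p-value is given, and every interval is a 95% interval that covers counting error only. Values are CPM (counts-per-million), the UMIs (unique molecules) of a gene over all UMIs of the cell class, and ratios are log2 of the Dach1OE level over the Control level.

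The Control library held 28720 cells and 143986818 UMIs and the Dach1OE library 32028 cells and 166999989 UMIs, of which 26466 and 29317 cells passed the filters. The libraries shared 1049 cell barcodes. Marker genes other than the 9 placed 7794 Control and 7939 Dach1OE cells in the endothelial class, with median depths of 2829.5 and 2821 UMIs. The endothelial cadherin gene Cdh5, one of the markers used, was seen in 95.6% and 97.0% of them, and 741 and 870 cells lay near the cut of the gate. Dach1 itself, the targeted gene, was at 4.40 CPM in Control and 207 CPM in Dach1OE ECs, and 3129 of the 7939 Dach1OE ECs had at least 1 Dach1 UMI. The makeup of the ECs differed between the libraries. Sinusoidal cells were 2905 of the Control ECs (37.3%) and 656 of the Dach1OE ECs (8.26%), and arterial cells 336 (4.31%) and 1022 (12.9%). A gate for Scgb3a1-marked cells took 1748 Dach1OE ECs (22.0%), of which 86.8% had a Scgb3a1 UMI, 90.3% Clca3a1 and 95.8% Igfbp5, but 5.03% Car4. The 37 Control cells that passed it did so on Clca3a1 and Igfbp5, and 10.8% of them had a Scgb3a1 UMI. They may therefore not be the same kind of cell, which was not tested, and this group is described for Dach1OE alone. Type H cells had close to the same share, at 15.5% and 15.4%. Type R cells numbered 78 and 72, tip-like cells 77 and 180, and proliferating cells 337 and 479, and 2718 and 2519 ECs had no leading subtype. The small subtypes depend on the gate: a further 194 and 177 cells scored highest for type R, and 142 and 552 for the Scgb3a1 markers, without the lead over the next score that was required. Graph clusters named by the same markers held 499 and 497 type R cells, 4570 and 855 sinusoidal cells, 426 and 1344 arterial cells and 1524 and 1860 type H cells. A pair of clusters named for the Scgb3a1 markers held 2161 and 933 Dach1OE cells, with 3 and 0 from Control.

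Over all ECs, 7 of the 9 genes differed by at least 1.5-fold, and in opposite directions by molecule. Lower in Dach1OE were Selp by 2.45-fold, Vcam1 by 2.09-fold, Sele by 2.01-fold and Ackr1 by 1.88-fold. The sialomucins Podxl and Cd34 were higher by 2.53-fold and 1.64-fold, and Icam2 by 1.86-fold. Icam1 and Jam2 did not pass 1.5-fold. A gene counted as past 1.5-fold when its ratio reached that size, its counting interval left out 0 and it had at least 20 UMIs over both libraries. Among the 15421 genes with that many UMIs, 7.43% were past 1.5-fold up and 6.3% down, against 3 and 4 of the 9 adhesion genes. The 9 were chosen with earlier results of these data known, so this comparison is no test of the set. The median log2 ratio was -0.01 over the 9 genes, that of Icam1, and 0.03 over all genes tested, so the 9 did not shift one way together. The plot of all genes places Selp at percentile 1.8 of the ratios and Podxl at percentile 97.8.

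**Figure D1:**
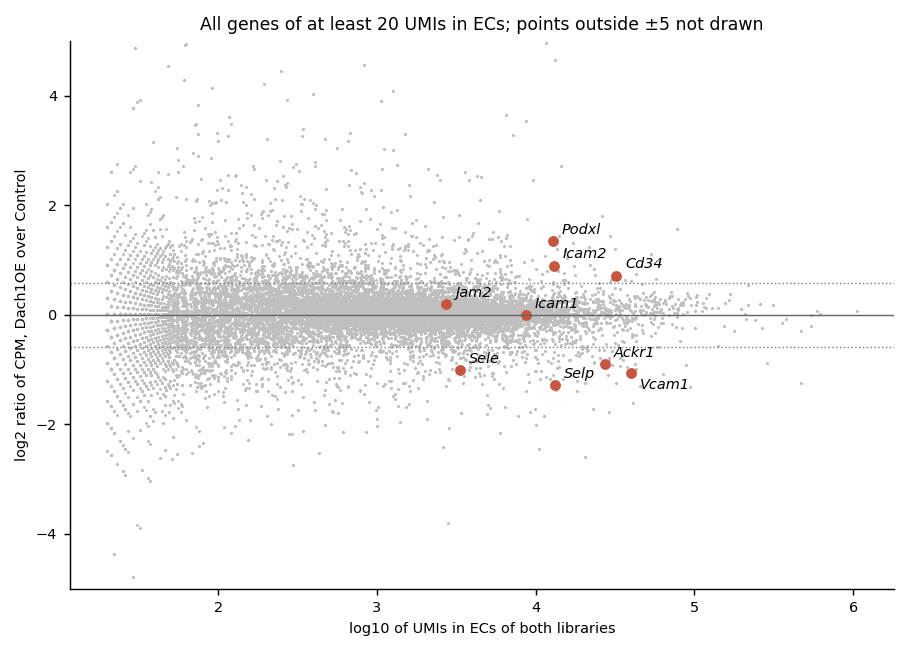
Each grey point is a gene with at least 20 UMIs in ECs, plotted as the log2 ratio of its CPM in Dach1OE over Control against the log10 of its UMIs in both libraries; dotted lines mark 1.5-fold and genes outside the axis are not drawn. Selp, Vcam1, Sele and Ackr1 lie below the lower line, Podxl, Icam2 and Cd34 above the upper line, and Icam1 at -0.01 and Jam2 at 0.19 between them.

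The selectins P-selectin (Selp) and E-selectin (Sele) bind sugar structures on leukocyte surface proteins and start rolling. In all ECs Selp was at 351 CPM (344 to 359) in Control and 143 CPM (139 to 148) in Dach1OE, a log2 ratio of -1.29 (-1.35 to -1.24). Sele was at 83.8 CPM (80.3 to 87.3) and 41.6 CPM (39.2 to 44.2), a log2 ratio of -1.01 (-1.11 to -0.90). Sinusoidal cells held the highest level of Sele in both libraries, with 139 CPM in Control and 153 CPM in Dach1OE. Type H cells had 12.6 and 11.1 CPM of Sele and arterial cells 4.65 and 4.71 CPM. The arterial values were of the size seen in mural cells, the contractile cells around vessels, which had 5.11 and 2.51 CPM. They rest on 5 and 17 UMIs, and whether arterial or mural cells made this Sele was not tested. Selp was at 499 CPM in sinusoidal and 458 CPM in type R Control cells, with overlapping intervals, and after each cell was thinned to 1000 UMIs the share of cells with a Selp UMI was 39.0% in type R and 36.6% in sinusoidal cells. In Dach1OE the sinusoidal level of 432 CPM stood apart from the next, 216 CPM in type R cells, whereas the Scgb3a1-marked cells had 172 CPM. Proliferating cells had 193 and 64.3 CPM of Selp, type H cells 116 and 61.99 CPM, and arterial cells 43.7 and 10.8 CPM.

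Within sinusoidal cells neither selectin was past 1.5-fold, with log2 ratios of -0.21 (-0.31 to -0.11) for Selp and 0.14 (-0.04 to 0.32) for Sele. Among the 12122 genes with enough UMIs in sinusoidal cells, 3.47% were past 1.5-fold up and 1.6% down, and of the 9 adhesion genes 2 were up and 0 down. Selp was lower within type H cells, at -0.91 (-1.13 to -0.69), and within arterial cells, at -2.02 (-2.67 to -1.37), although the Dach1OE arterial level of 10.8 CPM was under the 15.0 CPM of mural cells. In type H cells 4.45% of 11445 genes were past 1.5-fold up and 4.08% down, and of the 9 adhesion genes 0 were up and 3 down. In arterial cells 7.21% of 10530 genes were up and 7.29% down, and of the 9 adhesion genes 1 was up and 3 down. The cells of both subtypes lay largely in different graph clusters in each library. Of the clusters named type H, one held 1522 Control and 833 Dach1OE cells and the other 2 and 1027. Of those named arterial, one held 356 and 185 cells, another 68 and 750, and the last 2 and 409. The counts also depend on how cells were assigned. When subtypes were taken from graph clusters named by the same markers, type H cells had 0 adhesion genes up and 1 down (Selp, at -0.74). Arterial cells had 1 up (Icam1) and 3 down (Selp, Vcam1 and Cd34). The shares of all genes in these clusters were not computed, so these counts are not read against a background.

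Selp (chr1:164115264-164150026, plus strand) and Sele (chr1:164048234-164057677, plus strand) lie close together on chromosome 1 of GRCm38. Their starts are shown because both genes were lower over all ECs, with Icam1 (chr9:21015985-21028817, plus strand), which was level, and Cd34 (chr1:194938819-194961279, plus strand), which was higher. Each line gives the 250 bases that precede the RefSeq start site on the plus strand, at chr1:164115014-164115263 for Selp, chr1:164047984-164048233 for Sele, chr9:21015690-21015939 for Icam1 and chr1:194938571-194938820 for Cd34. Capitals mark matches on either strand to 4 motifs. The motif GGANNTTCC is a form of the NF-kB motif. The letters TGANTCA are a looser form of the AP-1 motif, which has C or G as its middle base. The TATA box was searched as TATAAA. The core of many ETS sites was searched as AGGAAG.
Selp: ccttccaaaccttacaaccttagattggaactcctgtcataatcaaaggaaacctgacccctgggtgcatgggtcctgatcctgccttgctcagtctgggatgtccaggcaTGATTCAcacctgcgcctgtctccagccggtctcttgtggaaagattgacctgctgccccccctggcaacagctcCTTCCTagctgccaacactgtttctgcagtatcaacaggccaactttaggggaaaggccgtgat
Sele: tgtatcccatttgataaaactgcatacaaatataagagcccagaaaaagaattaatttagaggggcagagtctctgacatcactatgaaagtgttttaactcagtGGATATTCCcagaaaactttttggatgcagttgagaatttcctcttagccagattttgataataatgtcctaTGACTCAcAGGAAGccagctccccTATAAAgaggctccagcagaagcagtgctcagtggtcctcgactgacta
Icam1: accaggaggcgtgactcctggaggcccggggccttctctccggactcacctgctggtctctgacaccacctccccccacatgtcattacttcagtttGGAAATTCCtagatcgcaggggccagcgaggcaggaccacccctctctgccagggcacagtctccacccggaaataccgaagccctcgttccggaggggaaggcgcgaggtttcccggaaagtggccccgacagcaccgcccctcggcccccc
Cd34: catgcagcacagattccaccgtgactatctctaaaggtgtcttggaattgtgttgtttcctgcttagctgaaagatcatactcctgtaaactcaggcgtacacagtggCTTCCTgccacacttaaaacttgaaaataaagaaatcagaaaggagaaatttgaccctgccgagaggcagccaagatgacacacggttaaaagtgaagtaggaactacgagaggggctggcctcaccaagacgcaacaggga
The NF-kB form stood 145 to 137 bases before the start of Sele and 153 to 145 bases before that of Icam1, and 3.59% of 32851 windows of this length held it. TGANTCA was in Selp as TGATTCA, whose middle base is not that of AP-1, and in Sele as TGACTCA, which fits it. The looser TGANTCA was in 6.75% of windows. In Sele that match ended 1 base before an AGGAAG match. TATAAA stood 49 to 44 bases before the start of Sele, and 12.4% of windows held it. AGGAAG was found in Selp, Sele, Cd34 and Ackr1, and 29.5% of windows held it. The RefSeq table held 5 of the 9 genes, and the Ackr1 window, with 3 AGGAAG matches, is not shown because it overlaps a GENCODE transcript of Ackr1. The Cd34 window shown, which ends at chr1:194938820, also reaches just past the GENCODE start of Cd34 at 194938819. These motifs were picked after the sequences were read, and a match describes letters, not binding.

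Vcam1, Icam1 and Icam2 encode immunoglobulin-type ligands of leukocyte integrins. VCAM1 binds the integrin made of Itga4 and Itgb1, and ICAM1 and ICAM2 bind the integrin made of Itgal and Itgb2. Over all ECs Vcam1 was at 1005 CPM (993 to 1017) in Control and 479.9 CPM (472 to 488) in Dach1OE, a log2 ratio of -1.07 (-1.10 to -1.04). Vcam1 (chr3:116109949-116129688, minus strand) set sinusoidal cells apart from type H and arterial cells. They had 1566 CPM in Control and 1376 CPM in Dach1OE, against 195 and 124 CPM in type H cells and 132 and 60.6 CPM in arterial cells. Proliferating cells had 547 and 209.5 CPM, and the Scgb3a1-marked cells of Dach1OE 757 CPM. Within sinusoidal cells the log2 ratio was -0.19 (-0.24 to -0.13). It was -0.66 (-0.83 to -0.50) in type H cells and -1.12 (-1.43 to -0.81) in arterial cells. With graph clusters the type H ratio turned to 0.08 (-0.08 to 0.23) and the arterial ratio was -0.60 (-0.93 to -0.27). Mural cells, a non-endothelial class of like depth, had 151 and 142 CPM of Vcam1, and the arterial levels did not exceed these. The mural levels were 4.72 and 7.54 times those of chondrocytes. Whether mural cells made this Vcam1 themselves was not tested, so it sets no background for arterial cells.

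Icam1 was level over all ECs, at 164 CPM (159 to 169) in Control and 162 CPM (157 to 167) in Dach1OE. The subtypes behind these values were not level. Arterial cells had 48.3 CPM (36.1 to 63.4) in Control and 113 CPM (102 to 125) in Dach1OE, a log2 ratio of 1.23 (0.81 to 1.67). Type R cells were the highest in Control, with 329 CPM (262 to 407), and had 204 CPM (152 to 269) in Dach1OE, a log2 ratio of -0.69 (-1.22 to -0.17) that rests on 84 and 51 UMIs. With type R cells taken from graph clusters the ratio was -0.43 (-0.65 to -0.20), not past 1.5-fold, whereas that of arterial clusters was 1.86 (1.41 to 2.35). Type R cells too lay mostly in different clusters in each library, one with 444 Control and 166 Dach1OE cells and one with 55 and 331, as did the arterial cells. The type R gate also took cells with unlike markers. Of its markers, C1qtnf9 was seen in 82.1% of Control and 84.7% of Dach1OE cells, Edn1 in 59.0% and 51.4%, Fmo2 in 79.5% and 31.9%, and Ntf3 in 3.85% and 19.4%. Aqp7 had no UMI in the Control cells, which allows up to 11.7 CPM, and was at 172 CPM in Dach1OE. Type R values are therefore set side by side for cells that may not be alike. Sinusoidal cells had 215 and 241 CPM, with a log2 ratio of 0.17 (0.02 to 0.31), and type H cells 84.8 and 99.4 CPM, with 0.23 (0.02 to 0.44). In the Scgb3a1-marked cells of Dach1OE Icam1 was at 236 CPM. All of these levels were above the 13.4 and 17.4 CPM of mural cells.

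Icam2 (chr11:106377656-106388075, minus strand), which is carried by resting endothelium, ran the other way. It was at 170.3 CPM (165 to 175) in Control ECs and 317 CPM (309.8 to 323) in Dach1OE ECs, a log2 ratio of 0.89 (0.84 to 0.95). Arterial cells were the highest in both libraries, with 340.1 and 494.5 CPM, followed by type H cells with 249 and proliferating cells with 230.2 CPM in Control. In Dach1OE the order after arterial cells was tip-like cells with 420.2 CPM, proliferating cells with 373 CPM and type H cells with 330.5 CPM. Sinusoidal cells were among the lowest, with 126 and 183 CPM. The Dach1OE value was above the Control value in all 7 endothelial groups plotted for both libraries, with log2 ratios of 0.54 (0.37 to 0.70) in sinusoidal, 0.54 (0.38 to 0.71) in arterial and 0.41 (0.29 to 0.53) in type H cells. In chondrocytes, which line no vessel, Icam2 was at 4.44 and 8.26 CPM.

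Ackr1 (chr1:173331886-173333750, minus strand) encodes an atypical chemokine receptor that binds chemokines without the usual signalling and presents them on venous endothelium. Over all ECs it was at 669 CPM (659 to 679) in Control and 356 CPM (349 to 363) in Dach1OE, a log2 ratio of -0.91 (-0.95 to -0.87). Type R and sinusoidal Control cells had 1201 and 1114 CPM, with overlapping intervals. In Dach1OE the highest levels were 859 CPM in sinusoidal cells, 730.4 CPM in the Scgb3a1-marked cells and 669 CPM in type R cells. Type H cells had 80.4 and 53.0 CPM, and arterial cells 42.8 and 26.3 CPM, the latter at the level of mural cells, 41.8 and 36.2 CPM. Within sinusoidal cells the log2 ratio was -0.38 (-0.45 to -0.30), and within type R cells -0.84 (-1.13 to -0.57). The type H ratio of -0.60 (-0.86 to -0.35) turned to 0.31 (0.06 to 0.56) with graph clusters, and the arterial ratio of -0.70 (-1.22 to -0.16) moved to -0.09 (-0.63 to 0.49). Cadm3, a neighbouring gene on the same strand, overlaps Ackr1 by 493 bases in the GENCODE annotation. Cadm3 was at 67.1 CPM in Control and 52.1 CPM in Dach1OE ECs, and reads in the shared stretch cannot be told apart.

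Cd34 and Podxl (podocalyxin; chr6:31519488-31563981, minus strand) encode sialomucins, which can serve as L-selectin ligands when suitably decorated with sugars and otherwise cover the luminal surface. Cd34 was at 459.6 CPM (452 to 468) in Control and 753 CPM (743 to 764) in Dach1OE ECs, a log2 ratio of 0.71 (0.68 to 0.75). Its levels ran opposite to those of Vcam1. Arterial cells had 1570 CPM in Control, tip-like cells 1412 CPM, type H cells 1295 CPM and type R cells 974 CPM, against 38.5 CPM in sinusoidal cells. In Dach1OE type H cells were the highest with 1422 CPM, followed by tip-like cells with 1349 CPM, type R cells with 1177 CPM and arterial cells with 1050 CPM, and the intervals of neighbours in this order overlapped. With graph clusters tip-like cells were the highest in both libraries. Cd34 was thus lower in Dach1OE arterial cells than in Control arterial cells, with a log2 ratio of -0.58 (-0.66 to -0.50), while the level over all ECs was higher. In type H cells the log2 ratio was 0.14 (0.08 to 0.19), and -0.06 (-0.10 to -0.01) with graph clusters. The sinusoidal values of 38.5 and 82.5 CPM were close to the 43.2 and 65.2 CPM of mural cells. Whether either class made this Cd34 was not tested, and the sinusoidal log2 ratio of 1.10 (0.83 to 1.36) is read with that limit.

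Podxl had the largest ratio of the 9 genes over all ECs. It was at 137 CPM (132 to 141) in Control and 346 CPM (339 to 353) in Dach1OE, a log2 ratio of 1.34 (1.29 to 1.40). Arterial cells were the highest in both libraries, with 857 and 998 CPM. Type H cells had 267 and 376 CPM, type R cells 235 and 593 CPM, tip-like cells 187 and 378 CPM, and sinusoidal cells 32.2 and 66.3 CPM. Within subtypes the log2 ratio ranged from 0.22 (0.12 to 0.33) in arterial cells through 0.49 (0.38 to 0.61) in type H cells to 1.34 (0.90 to 1.79) in type R cells. The sinusoidal ratio was 1.04 (0.75 to 1.33), but mural cells also differed, with 11.4 CPM in Control and 32.4 CPM in Dach1OE, so free RNA is not separated from the sinusoidal value.

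Jam2 (chr16:84774123-84825928, plus strand) encodes a junctional adhesion molecule that binds its relative JAM3 between neighbouring cells. It was at 47.8 CPM (45.2 to 50.5) in Control and 54.5 CPM (51.7 to 57.4) in Dach1OE ECs, a log2 ratio of 0.19 (0.08 to 0.30). Its highest level lay in type R cells, with 649 CPM (554 to 756) in Control and 328 CPM (261 to 408) in Dach1OE, a log2 ratio of -0.98 (-1.38 to -0.59), which was also -0.98 with graph clusters. Type R cells carried markers of other classes as well. The 8 mural markers summed to 1005 CPM in Control and 849 CPM in Dach1OE type R cells, with Des at 0 in both and Kcnk3 at 0 in Control, against 71.5 and 106.7 CPM in all ECs. The 8 marrow stromal markers summed to 1068 and 600.7 CPM, with Chrdl1, Hp and Agt at 0 in both and Adipoq at 0 in Control. The 4 septoclast markers summed to 731 and 404.5 CPM, with Mmp9 at 0 in both and Mmp11 and Dpp4 at 0 in Dach1OE, where the sum was that of Fabp5 alone. Their part in the type R values was not tested. Arterial cells came next, with 157 and 117 CPM, and sinusoidal cells were at background with 12.5 and 13.4 CPM, against 9.94 and 11.4 CPM in mural cells. Within arterial and type H cells Jam2 was lower in Dach1OE, with log2 ratios of -0.43 (-0.69 to -0.16) and -0.44 (-0.69 to -0.19), although the level over all ECs was slightly higher.

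**Figure D2:**
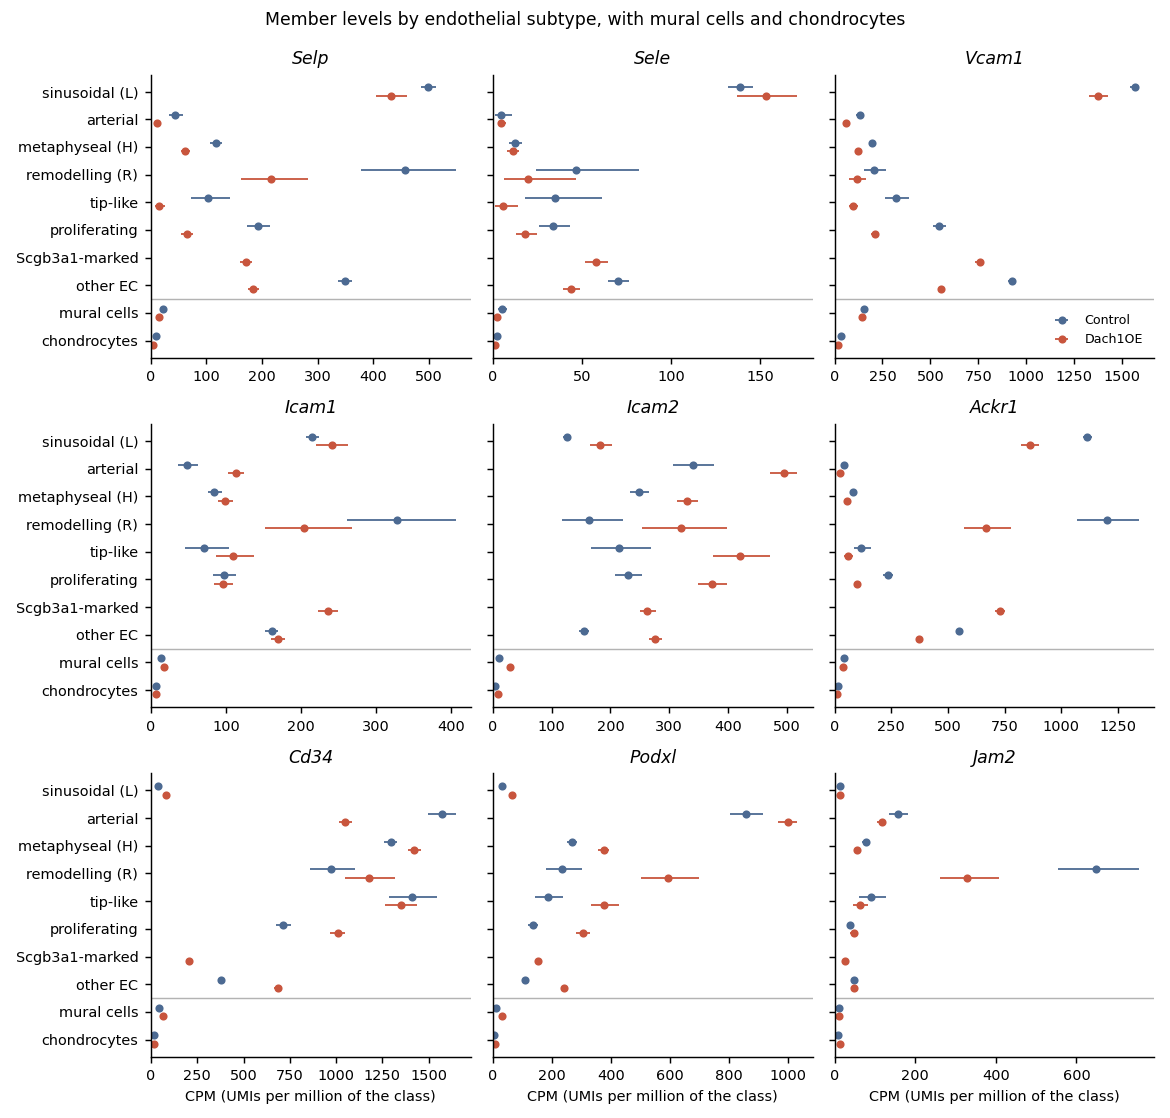
Each panel gives the CPM of a gene in Control (blue) and Dach1OE (red) for 8 endothelial groups above the grey line (Scgb3a1-marked cells for Dach1OE alone) and for mural cells and chondrocytes below it; bars are 95% Poisson intervals, the axes start at 0 and differ between panels. Vcam1 and Sele peaked in sinusoidal cells, Podxl and Icam2 in arterial cells and Jam2 in type R cells, and chondrocytes lay near 0 throughout.

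The source of each transcript within the endothelium moved with the makeup of the libraries, here as given by the gates, whose subtype sizes differ from those of the graph clusters. Sinusoidal cells held 40.4% of all EC UMIs in Control and 7.91% in Dach1OE. They supplied 67.3% of the Ackr1 UMIs of Control ECs, 66.8% of the Sele, 62.9% of the Vcam1, 57.4% of the Selp and 53.1% of the Icam1 UMIs. In Dach1OE they supplied 19.1%, 29.1%, 22.7%, 23.8% and 11.8% of the same genes. The Scgb3a1-marked cells, which held 20.8% of the Dach1OE EC UMIs, supplied 42.6% of the Ackr1, 32.8% of the Vcam1, 30.3% of the Icam1, 28.8% of the Sele and 24.8% of the Selp UMIs there. Arterial cells supplied 39.3% of the Podxl, 29.2% of the Jam2, 21.3% of the Icam2 and 19.0% of the Cd34 UMIs in Dach1OE, against 25.2%, 13.2%, 8.02% and 13.7% in Control. Type H cells were the leading named source of Cd34 in both libraries, with 41.1% and 30.1%.

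When each subtype other than the Scgb3a1-marked cells was given the same weight in both libraries, the ratios of the 7 genes past 1.5-fold all moved closer to 0. Selp had a log2 ratio of -0.83 (-0.97 to -0.69), Ackr1 -0.77 (-0.87 to -0.66), Vcam1 -0.56 (-0.64 to -0.48) and Sele -0.25 (-0.53 to 0.04). On the other side Icam2 was at 0.65 (0.55 to 0.76), Podxl at 0.64 (0.55 to 0.74) and Cd34 at 0.09 (0.03 to 0.15). Jam2 was at -0.65 (-0.87 to -0.44), the reverse of its pooled sign. The same weight went to the lymphatic gate, which is not described, and to the small type R gate. Type R cells had 649 CPM of Jam2 in Control and 328 CPM in Dach1OE, and may not be alike between the libraries. Under that weighting 5 genes were past 1.5-fold, Podxl and Icam2 up and Selp, Ackr1 and Jam2 down. The share of all genes under this weighting was not computed, so the count is not read against a background. How much of each pooled ratio came from the makeup of the libraries was not tested beyond these values.

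**Figure D3:**
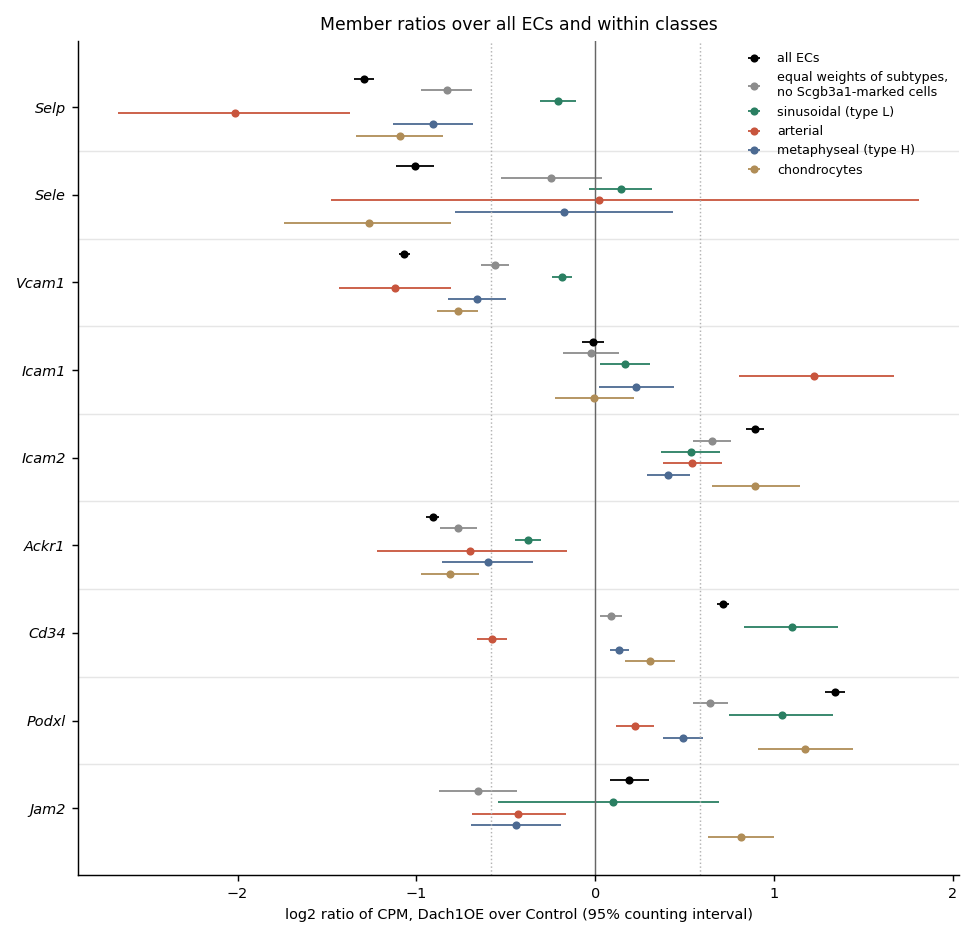
Log2 ratios of CPM in Dach1OE over Control with 95% counting intervals for all ECs, ECs with equal weights of subtypes other than the Scgb3a1-marked cells, sinusoidal, arterial and type H cells, and chondrocytes; dotted lines mark 1.5-fold. Selp, Sele, Vcam1 and Ackr1 lay between -1.29 and -0.91 over all ECs and between -0.38 and 0.14 in sinusoidal cells, and the chondrocyte ratios of Selp, Sele, Icam1, Icam2, Ackr1 and Podxl lay near those of all ECs.

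Cells were also compared by the share with at least 1 UMI after each cell was thinned to 1000 UMIs, which removes depth. Vcam1 was seen in 48.7% of Control and 28.7% of Dach1OE ECs, Ackr1 in 34.4% and 21.3%, Selp in 26.4% and 12.6%, and Sele in 7.49% and 3.88%. Cd34 was seen in 25.3% and 39.2%, Icam2 in 15.0% and 25.4%, and Podxl in 11.3% and 24.4%. Icam1, with 14.0% and 14.6%, and Jam2, with 4.67% and 4.94%, were close. Within sinusoidal cells the shares were 72.6% and 67.5% for Vcam1 and 36.6% and 32.4% for Selp. In chondrocytes thinned the same way, Vcam1 was seen in 3.05% and 2.02% of cells and Podxl in 0.474% and 0.930%.

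Vcam1 was seen together with Ackr1 more often than with Cd34 in single cells. Among Control ECs with an Ackr1 UMI, 70.6% (68.8 to 72.3, Clopper-Pearson) also had a Vcam1 UMI, against 48.7% of all Control ECs. Among those with a Cd34 UMI 15.4% (13.8 to 17.0) had one. Among Control ECs with a Podxl UMI, 58.4% (55.0 to 61.7) had a Cd34 UMI, against 25.3% of all. In Dach1OE the same shares were 58.0% of cells with Ackr1 and 10.7% of cells with Cd34 for Vcam1, against 28.7% of all, and 57.7% of cells with Podxl for Cd34, against 39.2%.

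The pooled mice were of both sexes, and cells could be split within each library by Xist and Y-linked UMIs. Each sex-by-library set is a further description and not a replicate, and sex cannot be told apart from the individual mice pooled. In all ECs the Control and Dach1OE values did not overlap for any of the 9 genes, as for 54.6% of the 15421 genes, so the lack of overlap says little about this set. Selp was at 359 and 339.9 CPM in Control and 159 and 125 CPM in Dach1OE in cells with Xist and with Y-linked UMIs. Vcam1 differed between these sets as well, with 799 and 1223 CPM in Control and 388 and 553 CPM in Dach1OE. Its ratios in cells with Xist and with Y-linked UMIs, -1.04 and -1.14, were alike. Cd34 was at 518 and 354 CPM in Control and 744 and 762 CPM in Dach1OE, giving log2 ratios of 0.52 in cells with Xist and 1.106 in cells with Y-linked UMIs. Podxl had ratios of 1.13 and 1.80, Sele of -0.72 and -1.39, Ackr1 of -0.70 and -1.07, and Jam2 of 0.12 and 0.75. In sinusoidal cells alone, Vcam1 was at 1314 and 1745 CPM in Control and 1029 and 1747 CPM in Dach1OE, which overlapped.

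**Figure D4:**
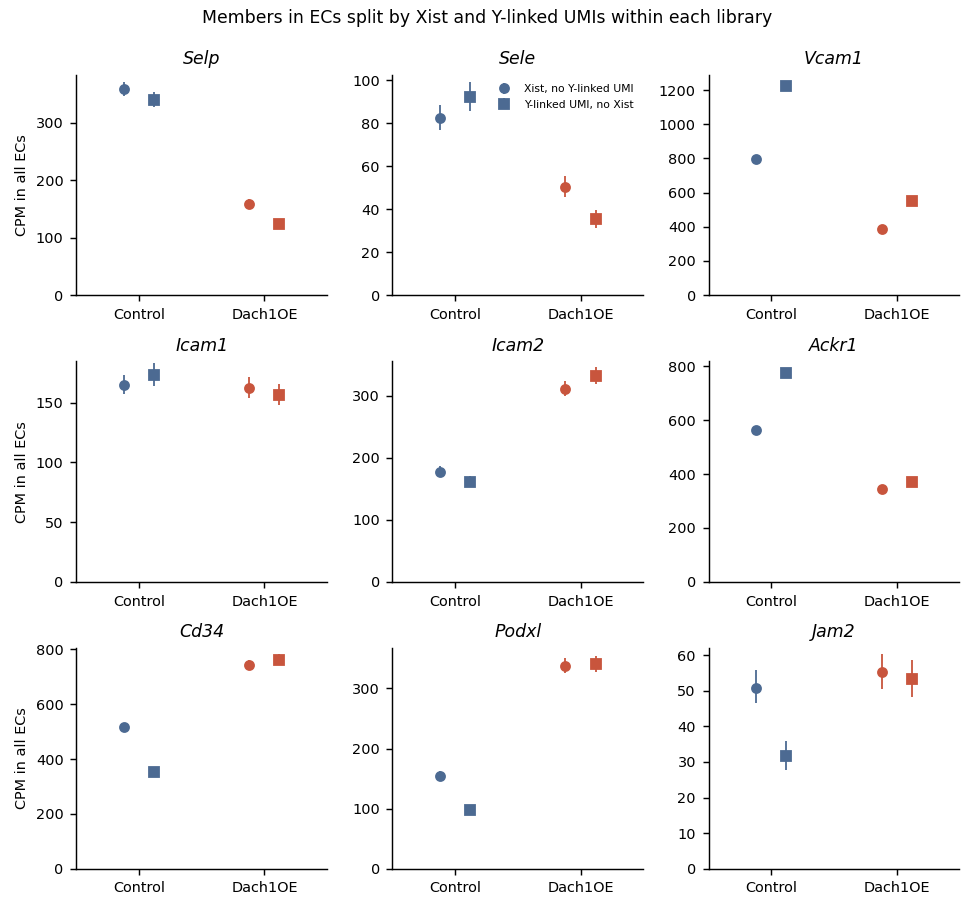
CPM in all ECs of each library for cells with Xist and no Y-linked UMI (circles) and cells with a Y-linked UMI and no Xist (squares), with 95% Poisson intervals; axes start at 0. Control Vcam1 was at 799 and 1223 CPM and Control Cd34 at 518 and 354 CPM, whereas Dach1OE Cd34 was at 744 and 762 CPM.

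Within the Dach1OE library, the 3129 ECs with a Dach1 UMI were set beside the 4810 without. The cells with Dach1 were deeper, with a median of 3437 against 2514.5 UMIs, and a cell without a Dach1 UMI may still express it. The sets also differed in makeup, with 368 type H cells among the 3129 and 858 among the 4810. The part of makeup in the values over all these ECs was not tested. Selp was at 103 CPM in cells with Dach1 and 178 CPM in the others, a log2 ratio of -0.79 (-0.89 to -0.69), and Vcam1 at 399.7 and 549 CPM, with -0.46 (-0.51 to -0.41). Podxl was higher in cells with Dach1, at 381 against 316 CPM, and Icam2 at 342 against 294 CPM. Ackr1, with 349 and 363 CPM, Cd34, with 735 and 768 CPM, and Jam2, with 55.4 and 53.6 CPM, were close. Selp kept this order in type H and sinusoidal cells but this was not seen in every subtype. In type H cells it was at 29.5 CPM in the 368 cells with Dach1, 80.3 CPM in the 858 without and 116 CPM in Control, and in sinusoidal cells at 315, 466 and 499 CPM. In Scgb3a1-marked cells Selp was at 167 CPM with and 178 CPM without a Dach1 UMI, a log2 ratio of -0.10 (-0.28 to 0.10), and in tip-like cells, with 10 Selp UMIs in all, the log2 ratio was 1.31 (-1.01 to 4.59), from which no order can be read. Vcam1 was ordered likewise, with 97.1, 138 and 195 CPM in type H cells and 1147, 1442 and 1566 CPM in sinusoidal cells.

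Outside the endothelium, Vcam1, Selp, Cd34 and Jam2 also had high levels in other classes. Vcam1 was at 1624 CPM in Control and 1180 CPM in Dach1OE marrow stromal cells, the Lepr-marked cells that surround sinusoids, which is 162% and 246% of the EC level of the same library. Its log2 ratio there was -0.46 (-0.51 to -0.41). Selp was at 212 and 158 CPM in megakaryocytes, which store P-selectin in granules passed on to platelets. Cd34 was at 601 and 623 CPM in fibroblasts and at 434 and 434.5 CPM in Mpo-marked cells of the granulocyte gate. Among the markers of that gate, Prtn3 was seen in 97.1% of its Control and 93.4% of its Dach1OE cells, but S100a8 in 2.885% and 3.947%. Whether these cells were granulocytes was not tested. Jam2 was highest in osteocytes, at 167 and 176 CPM from 38 and 53 cells, which are not plotted. It was at 53.9 and 59.5 CPM in osteoblasts and 94.5 and 52.6 CPM in fibroblasts, against 47.8 and 54.5 CPM in ECs. Ackr1 is known on red cells, and erythroid cells had 46.5 and 31.0 CPM, about the level of the shallower mural cells. Osteoblasts, whose depth was closer to that of erythroid cells, had 17.9 and 13.6 CPM. Whether the erythroid cells made it was not tested. For Sele, Icam1, Icam2 and Podxl the highest share of the EC level in the 10 classes plotted was 28.9%, for Icam2 in the Mpo-marked Control cells of the granulocyte gate.

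**Figure D5:**
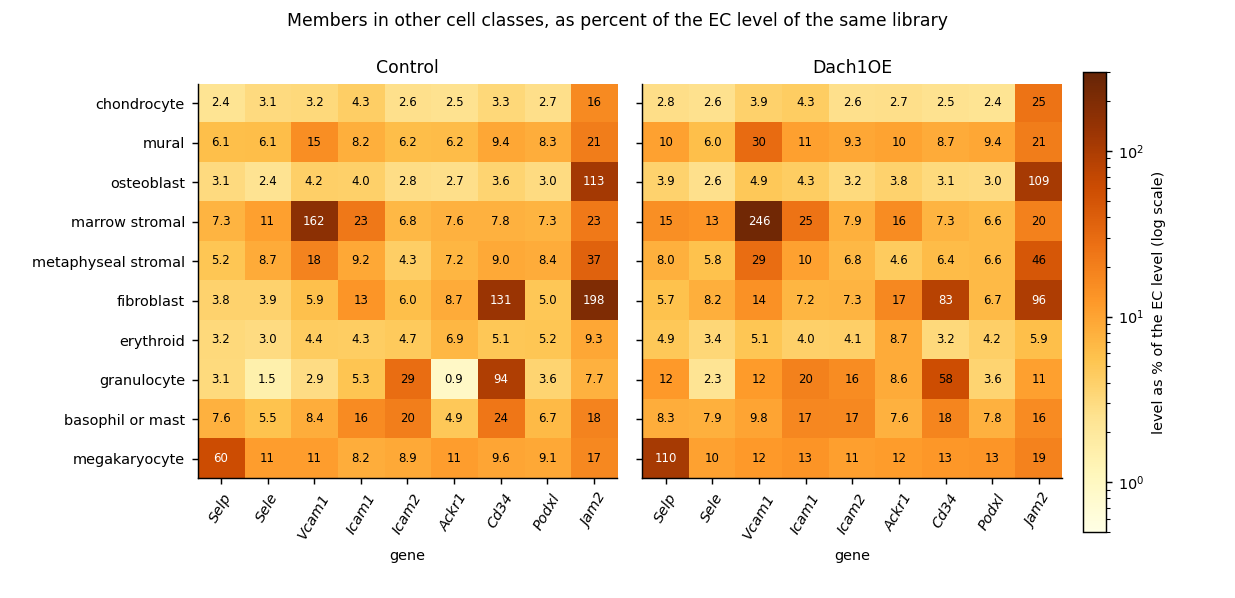
Level of each gene in 10 cell classes outside the endothelium as a percent of its level in all ECs of the same library, for Control (left) and Dach1OE (right), with a log colour scale. Vcam1 in marrow stromal cells reached 162% and 246%, Cd34 in fibroblasts and Jam2 in osteoblasts and fibroblasts stood out in both libraries, and Selp was high in megakaryocytes.

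Free RNA and doublets bear on the low values. Chondrocytes, the deepest large class, had 8.39 CPM of Selp in Control and 3.94 CPM in Dach1OE, 32.1 and 18.8 CPM of Vcam1, and 3.70 and 8.34 CPM of Podxl. Their log2 ratios were -1.09 for Selp, -0.77 for Vcam1, -0.81 for Ackr1, 0.90 for Icam2 and 1.17 for Podxl, in the directions of the ECs. Cells marked as doublets by Scrublet were 0.8596% of the Control and 0.819% of the Dach1OE ECs. Among markers of other cells, the 6 of the macrophage list summed to 543 CPM in Control and 229 CPM in Dach1OE ECs. C1qa was at 0 in Dach1OE. In sinusoidal cells that sum was 738 and 668 CPM, with Adgre1 at 0 in both libraries and C1qa and C1qb at 0 in Dach1OE. In arterial cells the sum was 63.2 and 17.2 CPM. There C1qa, C1qb and Adgre1 were at 0 in both libraries and Csf1r at 0 in Dach1OE. In the 37 Control cells of the Scgb3a1 gate it was 455 CPM from Mrc1 alone, with the other macrophage markers at 0. The 10 markers of the chondrocyte list summed to 1115 and 1614 CPM in all ECs. The 6 lymphocyte markers summed to 1.53 and 0.981 CPM, with Cd3e and Ms4a1 at 0 in Dach1OE. The part of the cells behind these marker lists was not tested. With marked doublets left out, the same 7 genes remained past 1.5-fold.

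Partners of the 9 genes were counted in ECs from lists, each with the median log2 ratio of its tested genes. Over all 15421 genes tested in ECs, 7.43% were past 1.5-fold up and 6.3% down, with a median of 0.03, and each list is read against these shares. Among 9 tested leukocyte receptors for these ligands, 2 were past 1.5-fold up and 0 down, with a median of 0.08. They were Cd44, which is also an endothelial hyaluronan receptor, at 5.001 and 12.03 CPM, and Spn at 1.23 and 2.11 CPM. Among 9 tested enzymes that build selectin ligands, 3 were up and 1 was down, with a median of 0.05. The sulfotransferase gene Chst2 was lower, from 659 to 199 CPM with a log2 ratio of -1.73 (-1.77 to -1.69), and its relative Chst1 was higher, from 19.6 to 43.5 CPM. Gcnt1 was at 1.27 and 3.81 CPM and Fut4 at 9.37 and 14.3 CPM.

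Among 17 tested other adhesion and transmigration genes, 4 were past 1.5-fold up, against 7.43% of all genes, and 0 down, against 6.3%, with a median of 0.08. Aoc3, which encodes vascular adhesion protein, was at 2.65 and 44.8 CPM, Vwf, the von Willebrand factor stored with P-selectin in endothelial granules, at 25.2 and 244.5 CPM, Madcam1, a ligand of the gut-homing integrin, at 10.8 and 67.8 CPM, and Jam3 at 13.1 and 19.7 CPM. The list of chemokines also held the cytokine genes Csf1 and Il6. Among its 9 tested genes 1 was up, near the share of all genes, and 2 were down, with a median of -0.33. The membrane-bound chemokine gene Cx3cl1 was at 3.99 and 24.0 CPM, and the interferon-induced Cxcl10 and Cxcl9 were at 38.5 and 16.2 CPM and at 109 and 62.01 CPM. Of the 14 genes of the NF-kB list, which act in inflammatory induction of Sele, Vcam1 and Icam1, 1 was up and 0 were down, with a median of -0.12, and this count is at the 7.43% of all genes that were up. The gene was the receptor gene Tnfrsf1b, at 10.6 and 22.6 CPM.

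Likeness was measured as Pearson's r of log2(CPM + 10) over 18 profiles, 9 endothelial groups in each of 2 libraries. The profiles share depth and free RNA within a library. They include the 37 Control cells of the Scgb3a1 gate, which may be unlike those of Dach1OE. Selp and Ackr1 (r = 0.91) and Sele and Vcam1 (r = 0.91) ran together, as did Cd34 and Podxl (r = 0.80), and Vcam1 and Podxl ran opposite (r = -0.90). The genes most like Selp were P3h2, Apoe and Fabp4, and those most like Ackr1 were Fabp4, Cadm3, which overlaps it, and Apoe, with r between 0.95 and 0.97. Sele was most like Galnt15, 1700025G04Rik and Adgrg6, and Vcam1 most like Ston2, Adamts5 and Rarres2, of which Adgrg6 and Adamts5 were markers of the sinusoidal gate. Icam1 was most like Cadm3, Kank1 and Tgm2, and Icam2 most like Mxra7, Tbx3 and Cabp1, with r between 0.86 and 0.91. Cd34 was most like Mmp2, Col15a1 and Cd109, Podxl most like Tacc2, Phlda3 and Slc9a3r2, and Jam2 most like Ehd4, mt-Co1 and Tmem255b.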

How the data were processed

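The deposited tables hold UMI counts per cell and gene from BD Rhapsody whole-transcriptome libraries. Per the file headers, the authors ran the BD Rhapsody WTA Analysis Pipeline 1.11 on GRCm38 with GENCODE vM19, counting exon and intron reads (the study's methods name another pipeline version). RSEC-adjusted counts were used as deposited. The study's own limits on cells were applied: 500 to 6000 genes, and less than 25% of UMIs from mitochondrial genes.

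Classes and endothelial subtypes were rebuilt from markers that left out the 9 genes and the compared lists. A cell joined a class when its mean capped z score of the class markers was at least 0.2, led the next by at least 0.2, and at least 3 markers (2 for a subtype) were seen. Names may therefore differ from those of the study. Cells passing a lymphatic gate (99 and 37) may be mixed with sinusoidal cells and are not described. Of these cells 98.0% and 100% had an Mmrn1 UMI, 76.8% and 62.2% Prox1, and 30.3% and 40.5% Lyve1. Osteocytes (38 and 53) are not plotted, and other classes under 50 cells are left out. UMIs were summed per class and library, with exact Poisson intervals for levels and conditional binomial intervals for ratios, which was tested on simulated data. There is 1 library per group, so no test was possible. Scrublet calls were recorded and the cells kept. The 9 genes and the lists were chosen with earlier results of these data known. All 9 are named. Of the other lists, genes past 1.5-fold are named, at most 4 per list and direction, and for each of the 9 the 3 most alike genes with at least 200 UMIs in ECs.

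Counts were handled with Python 3.11.15, scipy 1.17.1, scanpy 1.11.5 and pandas 2.3.3. TMM factors, an alternative scaling, came from edgeR 4.0.16 in R 4.3.3. Gene positions are from GENCODE vM21 and promoters from RefSeq GRCm38.p6. PCR copies are removed by UMIs, and intervals cover counting error only.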

Additional observations from a re-analysis of the deposited data

Results flagged for a closer look

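Icam1 was singled out because its ratio had opposite directions in a pair of endothelial subtypes under the same comparison. In arterial cells its log2 ratio of Dach1OE over Control was 1.23 (0.81 to 1.67), from 48.3 to 113 CPM. In type R cells it was -0.69 (-1.22 to -0.17), from 329 to 204 CPM, on 84 and 51 UMIs, and with graph clusters in place of the gates -0.43 (-0.65 to -0.20), not past 1.5-fold. The cells of both subtypes lay largely in different graph clusters in each library: those named type R held 444 Control and 166 Dach1OE cells and 55 and 331, and those named arterial 356 and 185, 68 and 750, and 2 and 409. The type R markers Fmo2 (79.5% and 31.9% of cells) and Ntf3 (3.85% and 19.4%) also differed between the libraries. With 1 library per group the difference between the subtypes was not tested.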

How the results depend on the processing

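The 7 genes past 1.5-fold in all ECs were recounted under 14 alternatives, 11 planned and 3 added after the data were seen (no lead over the next class, the chondrocyte level subtracted, and equal weights of subtypes without the Scgb3a1-marked cells). The count was 5 with equal weights of subtypes, with or without the Scgb3a1-marked cells, 6 in cells with Xist, 8 in cells with Y-linked UMIs and 7 under each of the other 10. The share of all genes past 1.5-fold was not computed under the alternatives, so these counts show only how the 9 genes moved. Of the 126 single-gene ratios, 81 stayed inside the counting interval of the reported value and 45 lay outside it. None of these 7 genes changed direction. Jam2, at 0.19 and not among them, was past 1.5-fold down under both equal weightings, at -0.63 and -0.65, and up in cells with Y-linked UMIs, at 0.75, and is part of those counts of 5 and 8. Selp ranged from -1.45 to -0.83, Vcam1 from -1.30 to -0.56, Ackr1 from -1.38 to -0.56, Sele from -1.39 to -0.21, Podxl from 0.63 to 1.80, Icam2 from 0.62 to 1.04, Cd34 from 0.09 to 1.106, Icam1 from -0.20 to 0.02 and Jam2 from -0.65 to 0.75. Equal weights of all subtypes took Sele, Ackr1 and Cd34 under 1.5-fold, and those without the Scgb3a1-marked cells took Sele, Vcam1 and Cd34 under it. The first sets Control and Dach1OE cells of the Scgb3a1 gate, which may be unlike, against each other. Both weightings give the small type R and lymphatic gates the same weight as the large subtypes. Cells with Xist took Cd34 under 1.5-fold, at 0.52. The median ratio over the 9 genes moved from -0.01 to -0.21 and -0.25 with and without the Scgb3a1-marked cells at equal weights, to -0.14 in cells with Y-linked UMIs and to -0.20 in ECs without the Scgb3a1-marked cells, and the cause was not tested. The chondrocyte level may understate free RNA in the shallower ECs, so its subtraction is no full correction. TMM shifted all ratios by -0.01. Of the 18 pairs of gene and library, graph clusters gave the same highest subtype in 15, the exceptions being Ackr1 in Control (sinusoidal in place of type R) and Cd34 in both (tip-like). By the share of cells with a UMI at 1000 UMIs, the highest subtype also differed for Selp in Control (type R), Ackr1 in Control (sinusoidal) and Cd34 in Control (tip-like) and Dach1OE (type R). Among the calls that graph clusters ended inside subtypes were Vcam1 and Ackr1 in type H, Ackr1 in arterial, and Icam1 and Vcam1 in type R cells. Depth limits the small subtypes most: Icam1 in type R cells, on 84 and 51 UMIs, had an interval of -1.22 to -0.17. No paired analysis was possible because there is 1 library per group.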
